A study of Mus musculus with 9 samples.

Results

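AP-1 is a family of DNA-binding proteins, and 8 of its genes are described here, chosen by name from the 55536 genes in the count table: Fos, Fosb, Fosl2, Jun, Junb, Jund, Batf and Atf3. Transcripts were sequenced from spleen B cells labelled pre-GC, a stage before the germinal centre, in 4 libraries labelled WT and 5 labelled p52Ki. Both alleles carry the knock-in in the p52Ki mice, going by titles of the form p52ki/ki, and p52 is the NF-kB subunit made from the Nfkb2 gene. The sources used here give neither the design of the knock-in allele nor the strain, age or treatment of the mice nor the gate of the sort, and they name no other allele or agent for either genotype. GC B cells, also named in the series' design, were not analysed here. Nothing in the labels ties the libraries of a genotype to separate mice, and the spread that a p-value measures here may therefore be technical.

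AP-1 proteins bind DNA as pairs joined by a leucine zipper, often made of a JUN protein with a FOS, another JUN, an ATF or a BATF protein. Fos, Fosb, Jun, Junb and Atf3 are early response genes, transcribed within minutes when a B cell meets antigen, CD40 ligand or stress, and MAP kinases raise both their transcription and the activity of their products. In B cells, BATF and JUN proteins bind together with IRF4 or IRF8 at composite DNA elements, and BATF is needed for class switching.

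Every member has a promoter entry in RefSeq on GRCm38.p6. The 250 bases before the transcription start are shown for Jun, Junb and Fosb, whose transcripts rose in p52Ki, and for Fos, the most abundant FOS gene. They were searched on both strands for the AP-1 element TGAGTCA or TGACTCA, the CRE element TGACGTCA and its core TGACG, the Jun-type element TGACATCA, the SRF-binding CArG box, the NF-kB binding kB site, the ETS element CCGGAAGT, TATAAA and CCAAT. Matches are in capitals, and a full CRE also counts as a core.

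Jun promoter, chr4:95052223-95052472, minus strand: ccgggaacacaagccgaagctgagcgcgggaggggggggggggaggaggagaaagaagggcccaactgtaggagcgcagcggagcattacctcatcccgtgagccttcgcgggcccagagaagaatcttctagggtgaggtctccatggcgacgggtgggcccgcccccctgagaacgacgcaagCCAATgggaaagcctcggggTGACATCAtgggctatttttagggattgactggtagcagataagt
Junb promoter, chr8:84978749-84978998, minus strand: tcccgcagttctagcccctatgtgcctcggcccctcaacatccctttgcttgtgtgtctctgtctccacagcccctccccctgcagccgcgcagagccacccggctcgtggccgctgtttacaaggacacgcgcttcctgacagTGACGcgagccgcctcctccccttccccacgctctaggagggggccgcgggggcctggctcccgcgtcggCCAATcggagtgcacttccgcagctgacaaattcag
Fosb promoter, chr7:19310046-19310295, minus strand: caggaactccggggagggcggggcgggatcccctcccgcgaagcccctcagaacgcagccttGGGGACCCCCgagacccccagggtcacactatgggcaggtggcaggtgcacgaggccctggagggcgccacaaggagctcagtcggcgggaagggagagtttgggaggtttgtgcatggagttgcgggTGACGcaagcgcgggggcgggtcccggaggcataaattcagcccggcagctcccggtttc
Fos promoter, chr12:85473640-85473889, plus strand: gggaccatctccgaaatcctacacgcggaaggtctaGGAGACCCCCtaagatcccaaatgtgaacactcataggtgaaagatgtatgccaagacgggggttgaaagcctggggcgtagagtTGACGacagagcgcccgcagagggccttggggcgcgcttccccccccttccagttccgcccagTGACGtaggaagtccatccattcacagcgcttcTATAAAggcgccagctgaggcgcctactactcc

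TGACG lay before the start in 5 of the 8 members, Fos (at bases -129 and -66), Fosb (-60), Junb (-106), Batf (-98) and Atf3 (-7), and in 17.8% of all 32841 promoter windows of that length. The Jun window instead held TGACATCA at -45, found in 2.93% of windows. A kB site, the letter pattern that NF-kB dimers prefer, was matched in Fosb (GGGGACCCCC at -188), Fos (GGAGACCCCC at -214) and Fosl2, and in 7.25% of all windows. The Jun and Junb windows held no such match. CCAAT stood at -65 in Jun and -36 in Junb (33.9% of windows), and TATAAA at -33 in Fos (12.4%). The AP-1 element, the full CRE, the CArG box and the ETS element were matched in no member's window, and in 4.46%, 1.55%, 1.47% and 2.88% of all windows. Only these 250 bases and fixed letter patterns were searched, so sites further upstream or with other letters would be missed. The RefSeq start lies 1210 bases before the GENCODE start of Jund, and 671 and 34706 bases inside the GENCODE genes of Fosl2 and Atf3, so for these 3 the window does not precede the gene model used for positions and lengths. For the other 5 the starts were at most 51 bases apart. A match is a run of letters and was not tested for binding.

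The WT libraries held 7368604 to 7937579 counts and the p52Ki libraries 4492160 to 6647650, and 14033 to 14793 against 15504 to 16634 genes had a count. Levels are CPM, counts scaled to TMM-adjusted library size, and were compared between genes only after division by exon length. Nfkb2, the gene of p52, spanned 93.8 to 175 CPM in WT and 150 to 261 CPM in p52Ki, and the difference, 0.61 ± 0.21 in log2 (SE), missed the threshold (edgeR adjusted p = 0.0987). A gene's total does not tell the knock-in allele from another, so this does not check the labels. The 5 B cell markers, among them Ms4a1, Cd79a, Cd79b and Pax5, summed to 8711 to 9912 CPM in WT and to 9846 to 13440 CPM in p52Ki. All 5 were higher in p52Ki, 4 of them with an unadjusted edgeR p under 0.05. Only Cd79a passed the threshold, by 0.85 ± 0.16 in log2 (edgeR adjusted p = 0.00906). T cell, neutrophil and NK cell markers summed to at most 16.6, 3.32 and 12.9 CPM in any library, with S100a8, S100a9, Mpo and Elane at 0 counts in all 9.

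3 of the members rose in p52Ki, and 0 fell. Fosb rose 2.71-fold, Junb 2.15-fold and Jun 1.99-fold, and each had every p52Ki library above every WT library, as did Jund. Fos, Batf, Jund and Atf3 did not pass the threshold, an edgeR adjusted p of 0.05 over all 12849 genes tested, and Fosl2 had too few counts to be tested. Over all genes tested, 4.49% were called higher and 4.04% lower in p52Ki, and in 7.3% every p52Ki library was above every WT library, against 4 of the 7 members tested. The members were chosen with these changes known, so the counts describe them and no more. In bulk libraries like these, more cells of an expressing type and more RNA per cell cannot be told apart, and germinal centre and follicular B cell markers, given last, also differed between the genotypes.

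**Figure D1:**
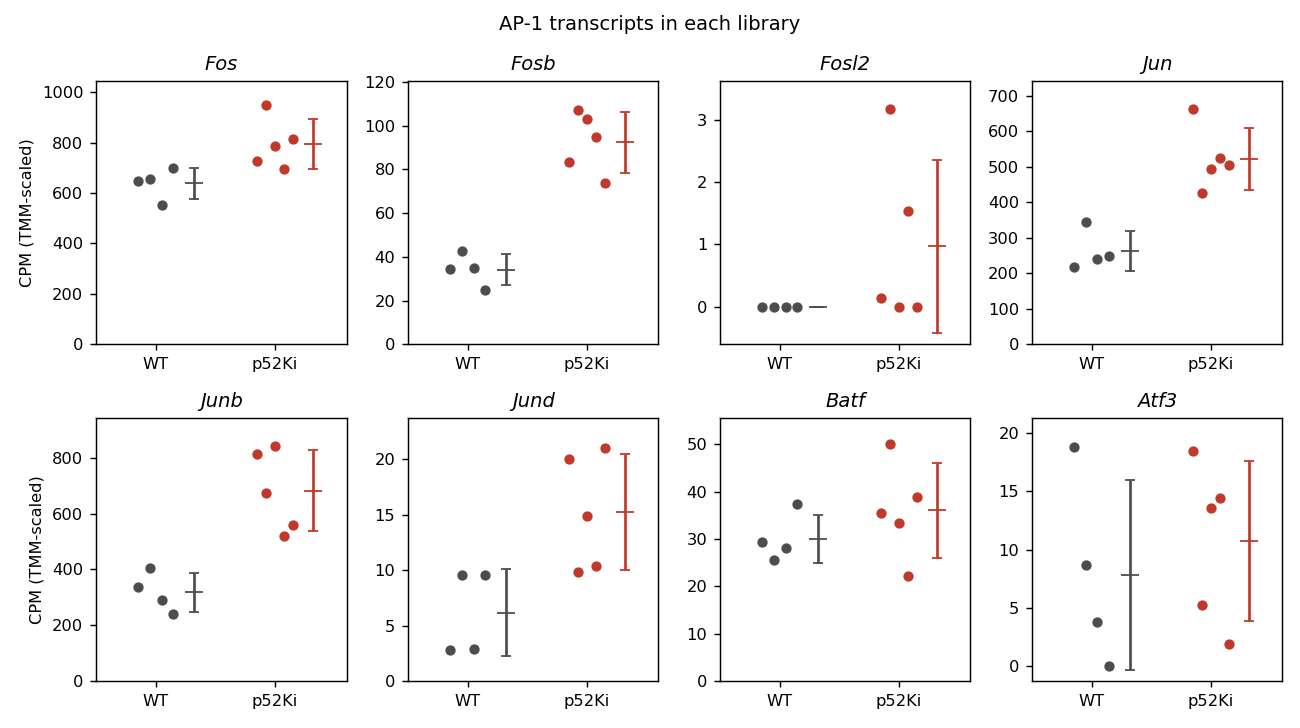
Level of each of the 8 AP-1 genes, in CPM on a linear axis, with 1 point per library (4 WT in grey, 5 p52Ki in red) and a bar for the mean and SD. The p52Ki points of Fosb, Jun, Junb and Jund lie above all WT points, while those of Fos, Batf, Fosl2 and Atf3 overlap them.

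Among the JUN genes, Jun encodes c-Jun, the founding subunit and a strong activator (ENSMUSG00000052684, GRCm38 chromosome 4, 95049034 to 95052222, minus strand, a gene of 1 exon). Its WT level was 216, 345, 241 and 249 CPM in replicate order, and its p52Ki level 663, 425, 492, 525 and 505 CPM. WT replicate 2 was the highest WT library and still lay below the lowest p52Ki library, replicate 2. Mean levels of 263 ± 56.8 and 522 ± 87.5 CPM (SD; 4 WT and 5 p52Ki libraries) gave a log2 fold change of 0.99 ± 0.17 (edgeR adjusted p = 0.00680). The antisense gene Junos covers 232 bases, or 7.3%, of the Jun exons, and the cDNA method does not mark strand, so reads in that stretch cannot be told apart.

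Junb encodes JunB, a weaker activator than c-Jun that can restrain it and that is abundant in activated lymphocytes (ENSMUSG00000052837, GRCm38 chromosome 8, 84974484 to 84978718, minus strand). Its level was 336, 404, 290 and 241 CPM in WT and 814, 674, 844, 520 and 560 CPM in p52Ki. p52Ki replicates 1 and 3 were the highest, and the lowest, replicate 4, was above WT replicate 2. Means of 318 ± 69.4 and 682 ± 146 CPM gave a log2 fold change of 1.10 ± 0.19 (edgeR adjusted p = 0.00687). Prdx2, on the other strand, overlaps 7.5% of the Junb exons and differed by -0.13 ± 0.17 in log2 without passing (edgeR adjusted p = 0.742).

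Jund encodes JunD, the JUN protein most tied to resting cells (ENSMUSG00000071076, GRCm38 chromosome 8, 70698949 to 70700616, plus strand). It had 2.76, 9.55, 2.84 and 9.56 CPM in WT and 20.0, 9.88, 14.9, 10.4 and 21.1 CPM in p52Ki, from 182 and 451 counts in all. The genotypes did not overlap, but p52Ki replicate 2 was only just above WT replicates 2 and 4, and the WT libraries fell into a low and a high pair. The difference, 1.30 ± 0.55 in log2, missed the threshold (edgeR adjusted p = 0.190). The antisense gene Gm11175 covers 52.6% of the Jund exons and was itself counted at 0.284 to 7.43 CPM in WT and 5.67 to 12.8 CPM in p52Ki. How reads shared by both genes were counted is not stated in the labels, so the level of Jund is uncertain.

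Of the FOS genes, Fos encodes c-Fos, which cannot pair with itself and binds DNA with a JUN partner (ENSMUSG00000021250, GRCm38 chromosome 12, 85473890 to 85477273, plus strand). It was at 647, 657, 553 and 699 CPM in WT and 726, 947, 786, 694 and 816 CPM in p52Ki. 4 p52Ki libraries lay above all WT libraries, and replicate 4 lay just below WT replicate 4. Mean levels were 639 ± 61.8 and 794 ± 98.2 CPM, and the log2 fold change, 0.31 ± 0.13, missed the threshold (edgeR adjusted p = 0.169, and 0.0699 to 0.332 over the alternatives). Among the 7 tested members, this gene had the smallest spread within WT relative to its mean, with an SD of 9.67% of the mean. It also had the most WT counts, 18838 in all, but spread did not follow counts among the others. Jun and Junb, with 7713 and 9340 WT counts, had SDs of 21.6% and 21.8% of the mean. Batf, with 887, had 16.8%. Why the spread of Fos was smallest was not tested.

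Fosb encodes FosB and, by splicing, a shorter form that lacks the activating end (ENSMUSG00000003545, GRCm38 chromosome 7, 19302696 to 19310051, minus strand). Gene counts do not separate the forms. It was at 34.4, 42.5, 34.8 and 24.8 CPM in WT and at 83.2, 107, 103, 94.7 and 73.9 CPM in p52Ki. The gap between genotypes, from 42.5 to 73.9 CPM, was wider than the range within WT. From 34.1 ± 7.23 to 92.4 ± 13.9 CPM the log2 fold change was 1.44 ± 0.22, and it passed (edgeR adjusted p = 0.00351).

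Fosl2, which encodes Fra-2, a FOS protein without the strong activating end of c-Fos (ENSMUSG00000029135, GRCm38 chromosome 5, 32135801 to 32157842, plus strand), had 0 counts in all 4 WT libraries. In p52Ki it had 1, 18, 0, 10 and 0 counts in replicates 1 to 5. The pooled p52Ki level was 0.970 CPM, 9.52-fold the 0.102 CPM that 3 counts over the summed WT libraries would give. That bound covers counting error in WT only and takes the p52Ki level as exact, in libraries that do not mark molecules. More genes of any kind also had a count in p52Ki libraries (15504 to 16634) than in WT libraries (14033 to 14793). Replicate 2 held 18 of the 29 counts, and without it the pooled level was 0.454 CPM and the bound 4.45-fold. Since 2 of 5 p52Ki libraries also had 0 counts, detection differed among libraries of that genotype.

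Batf encodes a small factor without an activating domain that pairs with JUN proteins and binds DNA beside IRF4 (ENSMUSG00000034266, GRCm38 chromosome 12, 85686669 to 85709087, plus strand). It was at 29.4, 25.6, 28.0 and 37.3 CPM in WT and at 35.6, 50.1, 33.3, 22.2 and 38.9 CPM in p52Ki. p52Ki held both the highest and the lowest library, replicates 2 and 4. The difference, 0.26 ± 0.28 in log2, was within its error (edgeR adjusted p = 0.678).

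Atf3, a stress-induced factor that represses as a homodimer (ENSMUSG00000026628, GRCm38 chromosome 1, 191170296 to 191218039, minus strand), was at 18.8, 8.72, 3.84 and 0 CPM in WT and at 18.4, 5.29, 13.6, 14.4 and 1.96 CPM in p52Ki. A count of 0 in WT replicate 4 allows up to 0.398 CPM (3 counts, for counting error only), so WT libraries ran from undetected to the highest level of all 9. The difference was 0.46 ± 1.04 in log2 (edgeR adjusted p = 0.870). It moved to 0.06 without WT replicate 4, to 0.17 and 0.25 without p52Ki replicate 1 and WT replicate 3, to 0.74 without p52Ki replicate 5 and to 1.36 without WT replicate 1, so its size rests on single libraries.

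**Figure D2:**
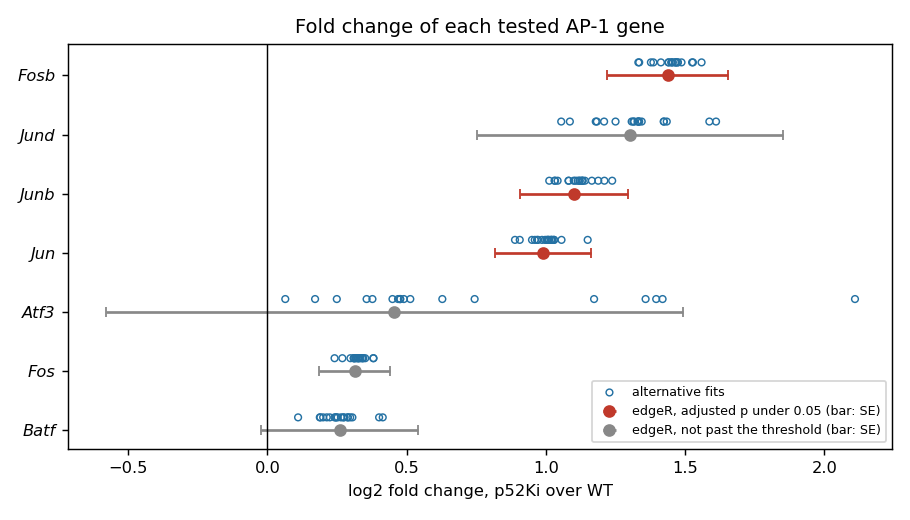
Log2 fold change of the 7 tested AP-1 genes, p52Ki over WT, as filled points with the SE, and the values of the 19 alternative fits as open circles. Those of Fosb, Junb and Jun lie between 0.89 and 1.56, and those of Atf3 spread from 0.06 to 2.11.

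Between members, per kilobase of exon, the order in each of the 4 WT libraries was Fos, Junb, Jun and Batf, at 272 ± 26.3, 138 ± 30.2, 82.4 ± 17.8 and 21.4 ± 3.61 CPM per kilobase. The ranges of Junb and Jun overlapped across WT libraries, though Junb was above Jun within each. Fosb, Jund and Atf3 were at 5.47 ± 1.16, 3.70 ± 2.34 and 3.64 ± 3.77 CPM per kilobase and their order differed between libraries. The place of Jund is uncertain, because its antisense gene may share its reads. In p52Ki, Fos and Junb were at 338 ± 41.8 and 297 ± 63.3 CPM per kilobase and overlapped, and Junb exceeded Fos in replicates 1 and 3. Jun came after both in all 5 p52Ki libraries, at 164 ± 27.4 CPM per kilobase. Dividing by the longest coding transcript instead kept the order of Fos, Junb and Jun within each library, but the p52Ki means of Fos and Junb came to 376.6 and 377.1 CPM per kilobase, and Fosb passed Batf in p52Ki replicate 4.

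The make-up of the family also differed between genotypes. Fos gave 52.3%, 46.7%, 50.5% and 57.6% of the summed CPM per kilobase of the 8 genes in the WT libraries, and 33.2%, 45.2%, 36.7%, 40.4% and 43.3% in those of p52Ki. Its share was lower in every p52Ki library than in any WT library, while its own level was not. Junb gave 20.3% to 29.4% in WT and 30.3% to 40.3% in p52Ki, while the share of Jun overlapped, at 12.89% to 18.11% and 14.96% to 22.59%. The 3 JUN genes summed to 0.768, 1.01, 0.845 and 0.625 times the 3 FOS genes in WT, and to 1.78, 1.03, 1.51, 1.28 and 1.16 times in p52Ki. The lowest p52Ki ratio, in replicate 2, was close to the highest WT ratio, also in replicate 2. These sums and shares include Jund, whose level is uncertain because the counting of reads shared with the antisense gene Gm11175 is not stated. Jun over Fos alone overlapped, at 0.246 to 0.388 in WT and 0.331 to 0.674 in p52Ki. Ratios and shares do not depend on library scaling, and no test was made of them because the genes were chosen with their changes known.

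**Figure D3:**
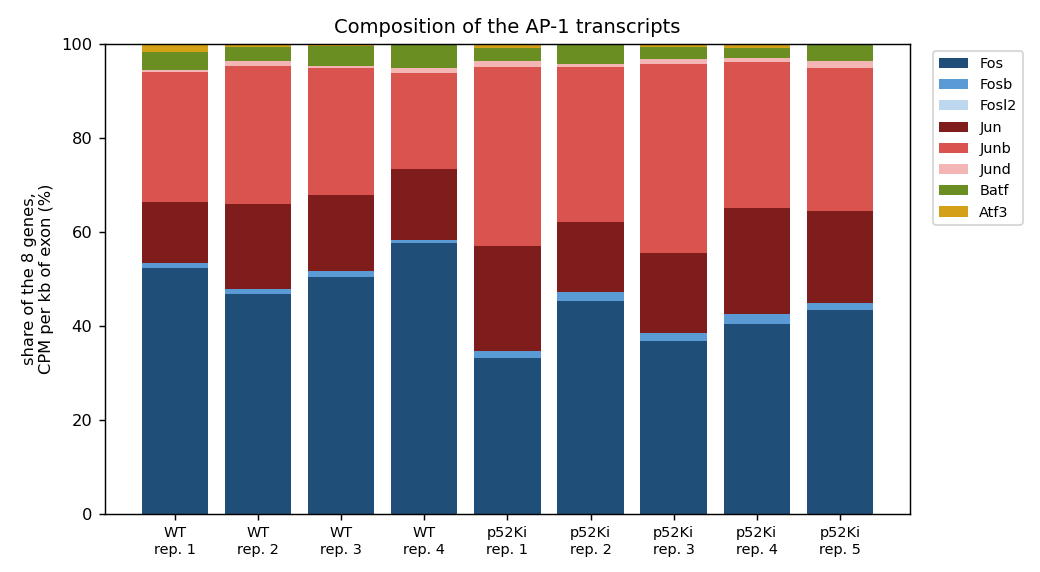
Share of each gene in the summed CPM per kilobase of exon of the 8 AP-1 genes, in percent, as 1 stacked bar per library. Fos takes 46.7% to 57.6% of the WT bars and 33.2% to 45.2% of the p52Ki bars, where the Junb part is larger.

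The members also differed in how alike their profiles were over the 9 libraries, measured as the root mean square difference of log2 CPM after centring each gene. Jun and Junb differed by 0.28, and Fosb and Junb by 0.28, while Fos was nearest to Batf (0.22). Among 8372 other genes of sufficient level, Junb was most like Cd69, an early activation antigen of lymphocytes (0.12), and Chst3, a sulfotransferase (0.16). Cd69 had means of 166 and 340 CPM in WT and p52Ki. Jun was nearest to its antisense partner Junos (0.14), with which it shares exon bases, and to Lgals8, a galectin (0.17). Fosb was nearest to 9930111J21Rik1 (0.22) and Ifngr2, a chain of the interferon gamma receptor (0.24). These genes were ranked by likeness to members that rose, so their own rise is part of the ranking.

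Of 11 other AP-1 and related bZIP genes 7 were tested, of which 1 rose and 0 fell (median log2 fold change 0.73, against 0.03 over all genes tested). Mafk, a small MAF protein that pairs with other bZIP factors, rose from 21.2 ± 10.1 to 62.0 ± 20.2 CPM (1.55 ± 0.36, edgeR adjusted p = 0.0223). Leaving out WT replicate 3, WT replicate 4, p52Ki replicate 2 or p52Ki replicate 3 ended that call (highest adjusted p 0.0599). Atf7, Mafg and Maf had log2 fold changes of 0.76, 0.73 and 0.81 and did not pass (edgeR adjusted p = 0.429, 0.581 and 0.817). Batf3 had 0 counts in all 9 libraries, Fosl1, which encodes Fra-1, had 5 counts in WT and 0 in p52Ki, and Jdp2 had 0 and 1.

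In the MAP kinase relay, which carries receptor signals to AP-1, 2 of 19 tested genes rose and 0 fell (median log2 fold change 0.09). Map3k1, a kinase above JNK and ERK, rose from 72.3 ± 23.8 to 483 ± 211 CPM (2.74 ± 0.34, edgeR adjusted p = 0.00185), with WT libraries up to 93.3 CPM and p52Ki libraries from 277 CPM. Map3k8, or TPL2, which feeds ERK, rose from 20.6 ± 9.06 to 48.4 ± 6.04 CPM (1.23 ± 0.30, edgeR adjusted p = 0.0263). Its call was kept in only 3 of the 9 fits without 1 library and ended without any of WT replicates 1, 3 and 4 and p52Ki replicates 1, 2 and 5 (highest adjusted p 0.0703). Map2k1 and Map2k4, activators of ERK and of JNK and p38, differed by -0.43 ± 0.15 and -0.66 ± 0.36 in log2 without passing (edgeR adjusted p = 0.102 and 0.333). The genotypes did not overlap for Map2k1, at 244.7 to 251.5 CPM in WT and 149.0 to 223.3 CPM in p52Ki.

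Of 8 tested MAP kinase phosphatases, which remove the activating phosphates from MAP kinases, 3 rose and 0 fell (median log2 fold change 0.08). Dusp6, a phosphatase of ERK that ERK itself induces, rose from 105 ± 45.9 to 378 ± 76.4 CPM (1.85 ± 0.30, edgeR adjusted p = 0.00456). Dusp5, a nuclear phosphatase of ERK, rose from 5.99 ± 3.96 to 32.3 ± 14.1 CPM (2.43 ± 0.51, edgeR adjusted p = 0.0152). Dusp10, which acts on JNK and p38, rose by 0.83 ± 0.23 in log2 (edgeR adjusted p = 0.0469), a call that held without WT replicate 3 or p52Ki replicate 4 and ended without each of the other 7 (highest adjusted p 0.118). Dusp1, the phosphatase most often induced together with Fos, was at 599 ± 107 and 387 ± 99.6 CPM (-0.63 ± 0.21, not past the threshold, edgeR adjusted p = 0.0901), and 4 of 5 p52Ki libraries lay below all WT libraries.

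Of 9 SRF and CREB factors, which act at the promoters of early response genes, 1 rose and 0 fell (median log2 fold change -0.13). Elk4, an ETS partner of SRF, rose by 0.82 ± 0.21 in log2 (edgeR adjusted p = 0.0316), a call that ended when WT replicate 1 or 3 was left out, or p52Ki replicate 1, 2, 3 or 5 (highest adjusted p 0.0767). Atf1, Creb1 and Mrtfa had log2 fold changes of -0.62, -0.42 and -0.32 and did not pass (edgeR adjusted p = 0.156, 0.259 and 0.401). None of the 6 tested regulators of JUN and FOS proteins passed with edgeR, though 3 had an unadjusted p under 0.05 and DESeq2 called 1. Cops5, a JUN-binding subunit of the COP9 signalosome, had the lowest p, with a log2 fold change of -0.90 ± 0.28 (edgeR adjusted p = 0.0714), and Fbxw7 and Itch, ubiquitin ligases or their substrate receptors for JUN proteins, were at -0.66 and 0.49 (edgeR adjusted p = 0.220 and 0.186). Cop1, another ligase for JUN, was at 0.53 (edgeR adjusted p = 0.336).

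Of 5 BATF partners and targets, all tested, 1 rose and 1 fell. Irf4, which binds DNA with BATF and JUN proteins, rose by 2.11 ± 0.26 in log2, from 34.6 ± 8.37 to 149 ± 42.5 CPM (edgeR adjusted p = 0.00172). Its relative Irf8 was at 937 ± 138 and 973 ± 130 CPM (edgeR adjusted p = 0.882). Il10 had 16 and 103 counts in all and did not pass (edgeR adjusted p = 0.416).

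None of the 6 tested genes of 12 with textbook AP-1 sites passed with edgeR, 0 of them had an unadjusted p under 0.05, and DESeq2 called 0. Plaur, the urokinase receptor, was at 7.53 ± 8.64 and 27.5 ± 15.3 CPM (edgeR adjusted p = 0.295). Cd44, an adhesion receptor, had mean levels of 156 ± 19.9 and 125 ± 25.8 CPM (edgeR adjusted p = 0.372), while Tnf and Hmox1 had log2 fold changes of -0.38 and 0.51 (edgeR adjusted p = 0.806 and 0.617). The remaining 6 had too few counts to test.

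Of 13 tested early response genes outside AP-1, 7 rose and 0 fell (median log2 fold change 0.90). Ier2 rose by 1.36 ± 0.16, Zfp36, which destabilises short-lived mRNAs, by 0.94 ± 0.14, Nfkbia, the NF-kB inhibitor, by 0.94 ± 0.15, and Klf4 by 3.05 ± 0.57 in log2 (edgeR adjusted p = 0.00141, 0.00320, 0.00518 and 0.00923). The list summed to 1212 to 1352 CPM in WT and 2182 to 2643 CPM in p52Ki. Of 9 heat shock genes, which also respond to handling, 3 fell and 0 rose. Hspa1a was at 116 to 632 CPM in WT and 1.94 to 20.2 CPM in p52Ki, Hspa1b at 21.2 to 86.5 and 0.176 to 3.68 CPM, and these near-identical copies can share reads. Hsph1 fell by 0.85 ± 0.22 in log2 (edgeR adjusted p = 0.0341), a call that ended when any library other than p52Ki replicate 4 was left out (highest adjusted p 0.0861), and Hspa8 differed by -0.44 ± 0.13 without passing (edgeR adjusted p = 0.0550). The part of tissue handling in the AP-1 values was not tested.

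**Figure D4:**
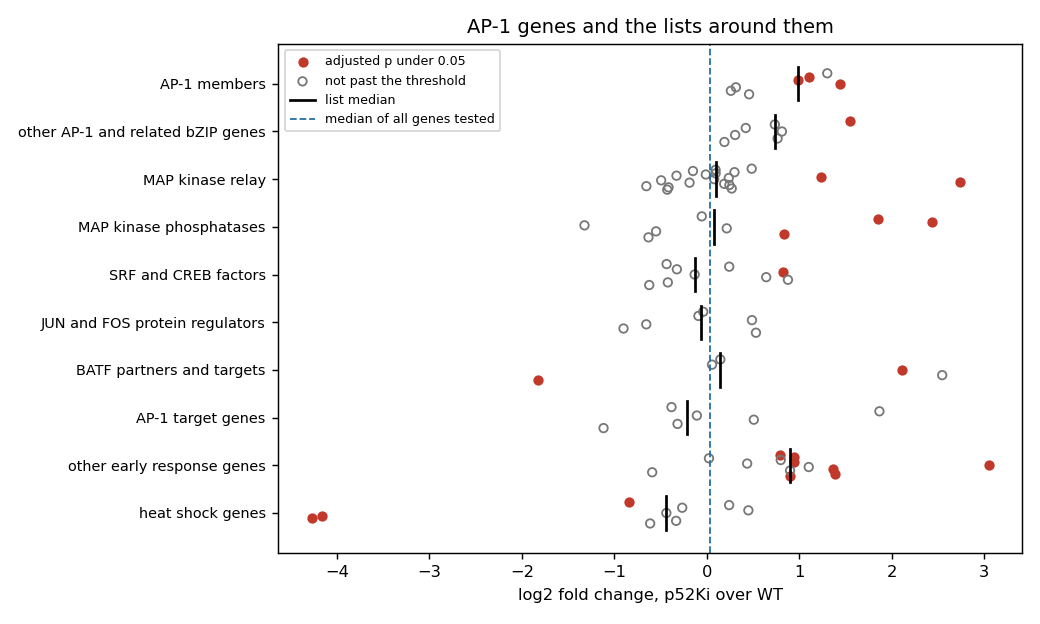
Log2 fold change, p52Ki over WT, of each tested gene in the AP-1 set and in 9 lists around it, with called genes filled, the list median as a black bar and the median of all genes tested, 0.03, as a dashed line. The medians of AP-1, early response, and other AP-1 and related bZIP genes, 0.99, 0.90 and 0.73, lie to the right. Those of MAP kinase relay and phosphatase genes, 0.09 and 0.08, lie near the dashed line.

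Markers of B cell stages moved beside the AP-1 genes. The 6 germinal centre genes summed to 2535 to 3272 CPM in WT and 603 to 1508 CPM in p52Ki, and 5 of the 6 fell and 0 rose. The 6 resting follicular genes summed to 592 to 819 and 1307 to 1942 CPM, and 5 of the 6 rose and 0 fell. The 4 plasma cell genes summed to 1436 to 1894 and 674 to 1256 CPM, most of it from Jchain, which fell (-1.16 ± 0.23, edgeR adjusted p = 0.0116). Sdc1, the plasma cell surface marker CD138, was at 0 to 4.84 CPM in WT and 6.74 to 37.9 CPM in p52Ki, so the genotypes did not overlap, but it did not pass (4.17 ± 1.32, edgeR adjusted p = 0.0762). Macrophage and monocyte markers summed to 38.9 to 102 and 73.2 to 163 CPM, and 0 of 5 tested passed with edgeR (1 at an unadjusted p under 0.05). That 1 was Lyz2, at 3.555 to 11.68 CPM in WT and 13.04 to 65.04 CPM in p52Ki, without overlap (edgeR adjusted p = 0.0685). Pecam1, an endothelial gene also found on leukocytes, rose by 1.36 ± 0.33 (edgeR adjusted p = 0.0256), a call that ended when WT replicate 2 or 3 was left out, or p52Ki replicate 1, 3 or 5 (highest adjusted p 0.0660), while Col1a1, Col1a2 and Col3a1 had 0 counts in all libraries. The part of the stage markers in the AP-1 values was not tested.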

How the data were processed

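Transcripts of spleen pre-GC B cells were measured in 4 WT and 5 p52Ki libraries. Per the labels' protocols, full-length cDNA was amplified by PCR (SMART-Seq v2) and made into paired-end Nextera XT libraries, which mark neither strand nor molecule. HISAT2 2.1.0, SAMtools 1.8, featureCounts of Subread 1.6.2 and build GRCm38 are listed, per the submitters' processing notes, with annotation and strand setting not given in the sources used here. Raw counts were deposited for 55536 genes and log2 CPM for 12849 genes. The deposited log2 values differed by at most 4.97e-14 from edgeR's log CPM (TMM, prior count 2).

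In R 4.3.3, edgeR 4.0.16 (filterByExpr, TMM, robust quasi-likelihood F test, no covariate) was fitted to all 9 libraries, with two-sided p-values adjusted by Benjamini-Hochberg over 12849 genes and a threshold of 0.05. Each SE is the log2 fold change divided by sqrt(F). The members and lists were chosen with earlier results of these data known. Beside the members and Nfkb2, up to 4 genes of smallest p per list were named, and the 2 genes most like each called member, of mean log2 CPM of at least 3. A few results that this rule names are left out. Genes and exon lengths are from GENCODE M21 (55450 identifiers found), promoters from RefSeq on GRCm38.p6. Alternatives were DESeq2 size factors, other filters, leaving out antigen receptor genes, a replicate block, each library left out, DESeq2 1.42.0, limma 3.58.1 (voom, trend) and a GC and length correction.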

Additional observations from a re-analysis of the deposited data

Results flagged for a closer look

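3 of 40 sets of values, each gene's or marker list's level within a genotype, held a library far from the others, and chance flags about 1 in 20. None of these was a level of an AP-1 gene. In WT, the summed B cell markers reached 9912 CPM in replicate 3 and at most 8867 CPM in the others, the summed NK cell markers reached 8.30 CPM in 1 library, and the summed neutrophil markers reached 3.32 CPM in 1 library and 0 in the others.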

How the results depend on the processing

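Each tested AP-1 gene kept its direction in all 19 alternative fits, and Fosb and Junb kept their calls in all of them. Jun lost its call with the replicate block (log2 fold change 1.01, edgeR adjusted p = 0.0770) and with the block and the GC and length correction (0.96, 0.0832), and kept it in the other 17. Without 1 library the log2 fold changes ran from 0.89 to 1.15 for Jun, 1.01 to 1.24 for Junb, 1.33 to 1.56 for Fosb, 0.24 to 0.38 for Fos, 1.06 to 1.61 for Jund, 0.11 to 0.41 for Batf and 0.06 to 1.36 for Atf3. Replicate numbers are not said to pair samples, and the deviations of same-numbered libraries from their group means correlated at r from -0.042 to -0.009, across genes. The block lowered the number of genes called from 577 to 97 higher and from 519 to 32 lower, or to 102 and 44 with the GC and length correction; DESeq2 called 995 higher. Without 1 library, 344 to 551 were higher and 262 to 557 lower. In both block fits, 0 other AP-1 genes, 1 MAP kinase gene, 0 phosphatases and 0 SRF and CREB factors rose and 0 BATF partners and targets fell, and 3 early response genes rose in the first. DESeq2 called 1 phosphatase, 1 JUN and FOS regulator and 5 heat shock genes lower. Without 1 library, 0 to 1 other AP-1 genes, 1 to 2 MAP kinase genes and 0 to 1 SRF and CREB factors rose, and 0 to 1 regulators fell (1 without WT replicate 2). Of the other genes named, Mafk, Map3k8, Dusp5, Dusp6, Dusp10, Elk4, Klf4, Nfkbia, Hsph1, Pecam1 and Cd79a lost their calls with the block (edgeR adjusted p from 0.0501 to 0.145). Dusp10 also lost it without a filter (0.0513) and with voom (0.0598). Replicate 5 exists only in p52Ki, so with the block that library adds nothing to the genotype difference. The cause of the lost calls was not tested. Counts were low for Fosl2 (0 in WT and 29 in p52Ki), Atf3 (233 and 344) and Jund (182 and 451), which limits what can be said of them.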
